A study of Mus musculus with 16 samples.

Results

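The 33 genes described here encode the enzymes that build cholesterol and fatty acids from acetyl-CoA, and the proteins that set their transcription. They were chosen by gene symbol from a list drawn up with earlier results of these data known. All 33 were found among the 14552 genes of the deposited table. Counts of members given beside the share of all genes are therefore a description. The list holds 7 enzymes of the mevalonate steps, 11 enzymes of the squalene and sterol ring steps, 9 enzymes of fatty acid synthesis, elongation and desaturation, and 6 genes for regulators and sterol transport. The 7 mevalonate and 11 ring enzymes together are called the sterol arm, with 18 members, and the 9 fatty acid enzymes the fatty acid arm.

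Expression was measured by RNA sequencing of 16 libraries from E14, a mouse embryonic stem cell line, in which DDX10 carried an auxin-inducible degron and the plant F-box protein Tir1 was present (genotype label Ddx10-AID, Tir1). DDX10 is a DEAD-box RNA helicase of ribosome biogenesis. Auxin, as indole-3-acetic acid at 500 µM, makes Tir1 recruit the tagged protein to the ubiquitin ligase for degradation. There were 8 groups of 2 libraries, namely untreated cells, cells given auxin for 2 h, for 4 h, for 6 h, for 12 h, for 1 day or for 2 days, and cells given auxin for 2 days and then kept without it for 2 days, called withdrawal here. All groups, the untreated one included, carried the degron and Tir1, and all grew in 15% serum with LIF at 1000 U/mL, CHIR99021 at 3 µM and PD0325901 at 1 µM. No auxin-treated cells lacking the tag were analysed here, and effects of auxin itself and of DDX10 loss cannot be told apart. The labels do not say whether the line was 1 clone, or whether separate cultures gave the 2 libraries of a group. The p-values therefore reflect only the spread between these samples, and that spread may be technical.

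As background, sterol synthesis starts when acetyl-CoA units are joined and reduced to mevalonate, which becomes isoprenoid units, then farnesyl diphosphate, squalene, lanosterol and, after ring modification, cholesterol. Fatty acid synthesis carboxylates acetyl-CoA to malonyl-CoA and extends it to palmitate, which elongases and desaturases then modify. Both arms are transcribed under the sterol regulatory element-binding proteins (SREBPs), encoded by Srebf2, which acts mainly on sterol genes, and Srebf1, which acts more on fatty acid genes. SCAP carries SREBPs from the endoplasmic reticulum to the Golgi when sterols are low, and the INSIG proteins hold SCAP back when sterols are high. Serum in the medium supplies cholesterol, so cultured cells usually run this pathway below its full capacity.

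The tagged gene itself was still transcribed. Ddx10, the gene whose protein is degraded, had 1433 and 1509 normalized counts without auxin, 1847 and 2046 by 2 h, 1886 and 1855 by 4 h, 1676 and 1675 by 6 h, and 1312 and 1305 by 12 h. Ddx10 then stood at 1159.7 and 889 by 1 day, 997 and 1041 by 2 days, and 1695 and 1498 once auxin was withdrawn. Against untreated cells its mRNA was higher at 2 h (log2 change 0.40 ± 0.11, adjusted p = 0.025) and lower at 2 days (-0.53 ± 0.11, adjusted p = 0.0013, limma with Benjamini-Hochberg adjustment). Because the degron removes protein and not mRNA, these levels check neither the labels nor the loss of DDX10. Library totals were 14.9 M to 16.9 M normalized counts, and 10 of 10 embryonic stem cell marker genes were present, with a summed level of 100524 to 135921. Markers of primitive endoderm, 6 of 7 in the table, summed to 152 to 166 at 2 days, against 80.2 to 81.1 in untreated cells, and to 96.7 to 101 after withdrawal. Markers of trophoblast, 5 of 6 in the table, summed to 2276 to 2369 at 2 days, against 1636 to 1685 in untreated cells, and to 1546 to 1594 after withdrawal. Earlier, the primitive endoderm sum was 94.5 to 132 at 2 h and 132.1 to 158.3 at 6 h. The trophoblast sum was 1808.8 to 1901.6 at 2 h and 1583.1 to 1682.1 at 4 h. Sums above untreated cells were thus also measured before most members were lower. Both sums were higher at 2 days, when most members were lower, and after withdrawal they were lower than at 2 days. The mesoderm or primitive streak sum went the other way. It was 346.9 to 529.3 in untreated cells, 221.9 to 249.3 at 1 day, 309.6 to 360.5 at 2 days and 484.3 to 512.9 after withdrawal. Eomes is in both that list and the trophoblast list. Neural markers summed to 1923 to 1987 at 2 days, within the 1819 to 2732 of untreated cells. Those of fibroblasts summed to 75.4 to 142 over 3 genes. The embryonic stem cell markers summed to 123019.8 to 126165 at 2 days, within the 115922 to 126599.8 of untreated cells, and to 100524 to 107173 from 4 h to 12 h. The part of these marker lists in the changes given here was not tested. In bulk RNA, fewer cells of a kind and less RNA per cell cannot be told apart. The 8 libraries of 2 h to 12 h stood apart from the other 8: in 7.6% of the 13355 genes tested, every one of them lay beyond all of the others, and 3 members, Hsd17b7, Sc5d and Stard4, were among these genes, each above. The labels name no batch, so time and any batch cannot be told apart for 2 h to 12 h against untreated cells, and comparisons within 2 h to 12 h are given beside them. The difference between the 2 replicates varied most in the untreated group, with an SD over all genes of 0.619 on the log2 scale, followed by 0.533 at 1 day and 0.368 to 0.414 elsewhere.

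Part of the sterol genes were higher than in untreated cells at 4 h of auxin, most of the 33 genes were lower at 1 and 2 days, and most were higher again after withdrawal than at 2 days. Changes are differences of mean log2(value + 1) with their standard error, and a gene was called at an adjusted p below 0.05. Over the 6 auxin times, 30 of the 33 members changed by the limma F-test, where 65.2% of all genes did, and Pmvk, Elovl6 and Acss2 were not called. At 2 h, 5 members were higher than in untreated cells and 7 lower, against 6.75% and 8.45% of all genes. The 5 were Hmgcs1, Cyp51, Msmo1, Insig1 and Stard4, and the 7 were Pmvk, Ebp, Insig2, Acly, Scd1, Scd2 and Fads1. Of these 12 calls 1, that of Insig1, held in every alternative, and 3 or 2 members were called without replicate 1 or replicate 2 of the 2 h group, and 7 without either untreated library. At 4 h, 8 members were higher and 2 lower, against 8.86% and 10.2% of all genes. The 8 were Hmgcs1, Fdft1, Cyp51, Msmo1, Hsd17b7, Srebf2, Insig1 and Stard4, and the 2 were Ebp and Fads1. Without replicate 1 of the 4 h group, 5 members were higher and 1 lower, and without replicate 1 of the untreated group 5 were lower. At 6 h, 6 were higher and 5 lower, against 10.9% and 13.4% of all genes, and 5 or 6 members were called in all without replicate 1 or replicate 2 of the 6 h group; 44.9% of all calls at 6 h were higher without further scaling and 55.5% with upper quartile scaling.

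From 12 h the balance turned. At 12 h, 12 members were lower and 2 higher than in untreated cells, against 18.3% and 14.8% of all genes, and without replicate 1 of the 12 h group 5 members were called in all. At 1 day, 21 of the 33 were lower and 1, Scap, was higher, against 17.7% and 15.9% of all genes. At 2 days, 22 were lower and Scap alone was higher, against 23.8% and 21% of all genes. The 21 members lower at 1 day were all among the 22 lower at 2 days, and Pmvk was the one added. These comparisons share the untreated libraries. The share of all genes called lower at both times was not computed, so this overlap is a description only. Between 2 days and 1 day, Sqle and Srebf2 were higher at 2 days and no member was lower, where 1.57% and 4.07% of all genes were; by limma 2 members, Acat2 and Idi1, were lower at an unadjusted p below 0.05. Of all calls in this comparison 27.9% were higher, and 39.6% with upper quartile scaling. Neither the call of Sqle nor that of Srebf2 held with each 2 day library left out in turn. The median log2 change of the 33 was 0.147 at 4 h, -0.594 at 1 day and -0.475 at 2 days, and the median over all genes was 0.006, -0.009 and -0.012 at those times. The plot of levels by library shows the rise at 4 h in part of the genes and the fall at 1 and 2 days in most of them.

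**Figure D1:**
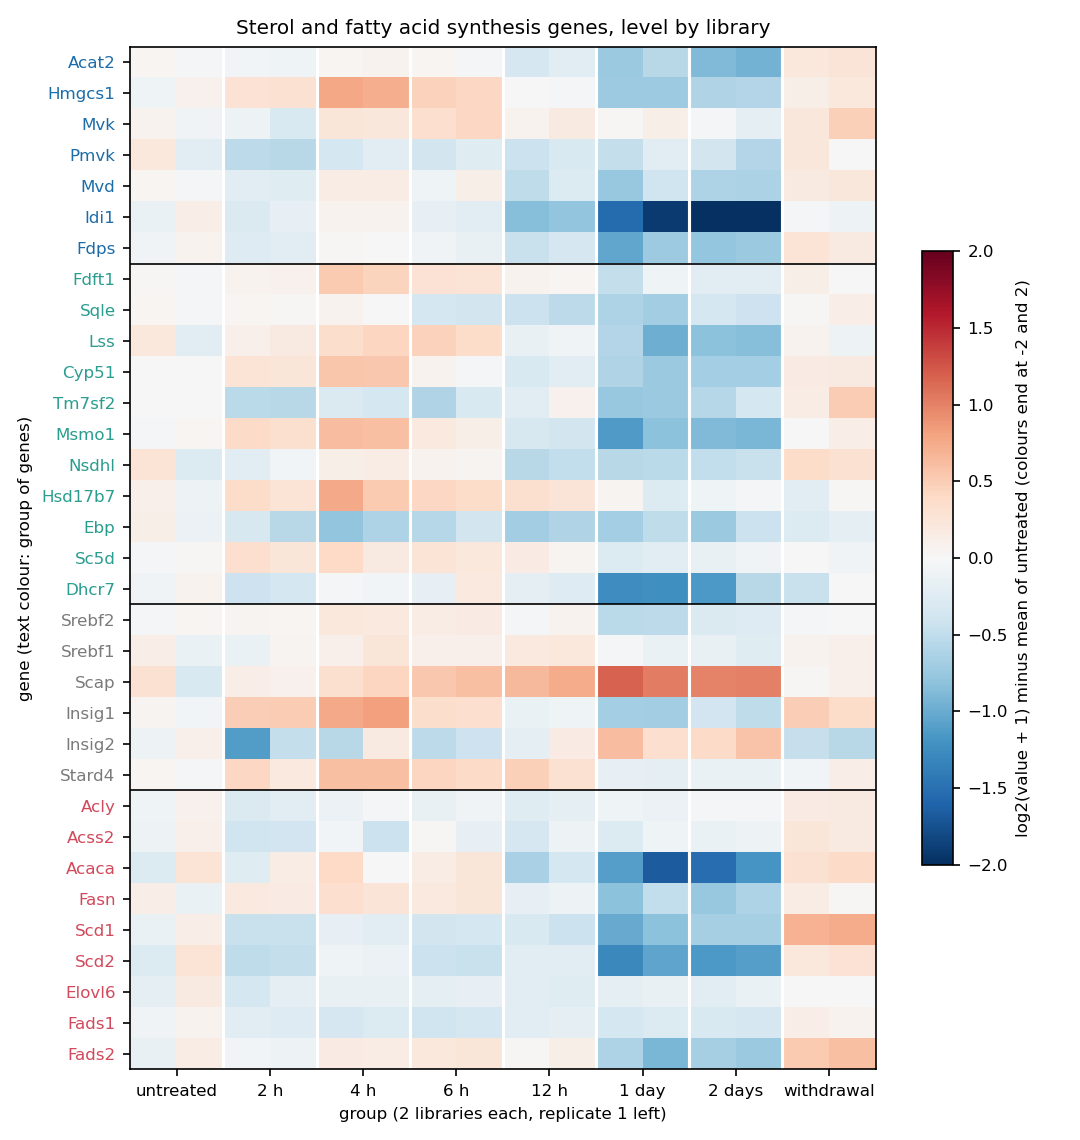
Level of each of the 33 genes (down the page) in each of the 16 libraries (across, 2 per group), as log2(value + 1) minus the mean of the untreated libraries; red is higher and blue lower, and the colours end at -2 and 2. Hmgcs1, Insig1, Msmo1 and Cyp51 are red at 4 h and blue at 1 and 2 days, Idi1 is the deepest blue at 2 days, and Scap is red at 1 and 2 days.

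Among the regulators, Srebf2 and Insig1 were higher than in untreated cells at 4 h and lower at 1 and 2 days, while Scap was higher at 1 and 2 days. Srebf2, the SREBP gene that acts mainly on sterol synthesis, had 4834 and 5105 normalized counts without auxin, 5183 and 5126 by 2 h, 5736 and 5685 by 4 h, 5516 and 5545 by 6 h, and 4849 and 5194 by 12 h. Srebf2 then stood at 3415 and 3462 by 1 day, 4084 and 4139.73 by 2 days, and 4819 and 4931 once auxin was withdrawn. Both 4 h libraries lay above both untreated ones, and both libraries of 1 and of 2 days lay below them. Against untreated cells Srebf2 was higher at 4 h (log2 change 0.20 ± 0.057, adjusted p = 0.027) and lower at 1 day (-0.53 ± 0.057, adjusted p = 1.2e-05) as well as at 2 days (-0.27 ± 0.057, adjusted p = 0.0016). The call at 4 h was lost in 5 of 13 alternatives. Insig1, which retains SCAP in the endoplasmic reticulum and is itself a target of SREBPs, had 1413 and 1304 normalized counts without auxin, 1904 and 1939 by 2 h, 2302 and 2387 by 4 h, 1740.4 and 1715 by 6 h, and 1233 and 1279 by 12 h. Insig1 then stood at 849.67 and 836 by 1 day, 1036 and 957 by 2 days, and 1908 and 1759 once auxin was withdrawn. Its level stood highest at 4 h and lowest at 1 day, with no overlap between the 4 h, untreated and 2 day libraries. Insig1 was higher than in untreated cells at 4 h (0.79 ± 0.075, adjusted p = 3.2e-05) and lower at 1 day (-0.69 ± 0.075, adjusted p = 1.3e-05) as well as at 2 days (-0.45 ± 0.075, adjusted p = 0.0003).

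Scap, the escort of SREBPs, had 1089 and 718 normalized counts without auxin, 971 and 936 by 2 h, 1111 and 1186 by 4 h, 1291 and 1343 by 6 h, and 1380.44 and 1487 by 12 h. Scap then stood at 1998 and 1797 by 1 day, 1768 and 1771 by 2 days, and 897 and 948 once auxin was withdrawn. One untreated library lay above those of 2 h, but the libraries of 4 h to 2 days were all above both untreated ones. Scap was higher at 1 day (1.10 ± 0.14, adjusted p = 5e-05) and at 2 days (1.00 ± 0.14, adjusted p = 6.7e-05), and at 4 h the change of 0.38 ± 0.14, adjusted p = 0.077 was not called. Insig2, the INSIG paralogue that is not induced by SREBPs, had 329 and 378 normalized counts without auxin, 162 and 253 by 2 h, 241 and 399.72 by 4 h, 244 and 264 by 6 h, and 306 and 395 by 12 h. Insig2 then stood at 543 and 446 by 1 day, 458 and 522 by 2 days, and 257 and 239 once auxin was withdrawn. Both libraries of 1 and of 2 days lay above the untreated ones, yet the changes of 0.48 ± 0.24, adjusted p = 0.13 at 1 day and 0.47 ± 0.24, adjusted p = 0.12 at 2 days were not called. At 2 h Insig2 was lower than in untreated cells (-0.80 ± 0.24, adjusted p = 0.038).

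Stard4, a cytosolic carrier of cholesterol, had 945 and 896 normalized counts without auxin, 1228 and 1055 by 2 h, 1392 and 1403 by 4 h, 1235 and 1205 by 6 h, and 1279 and 1138 by 12 h. Stard4 then stood at 823 and 804 by 1 day, 843 and 835 by 2 days, and 886 and 1014 once auxin was withdrawn. All 8 libraries of 2 h to 12 h were above the untreated ones, and those of 1 and 2 days were a little below them. Stard4 was higher at 4 h (0.60 ± 0.095, adjusted p = 0.00098), and the changes of -0.18 ± 0.095, adjusted p = 0.17 at 1 day and -0.13 ± 0.095, adjusted p = 0.27 at 2 days were not called. Srebf1, the SREBP gene that acts more on fatty acid synthesis, had 1688 and 1403 normalized counts without auxin, 1401 and 1593 by 2 h, 1645 and 1814 by 4 h, 1647 and 1654 by 6 h, and 1754 and 1773 by 12 h. Srebf1 then stood at 1499 and 1397 by 1 day, 1387 and 1307 by 2 days, and 1621 and 1645 once auxin was withdrawn. Its libraries overlapped between untreated cells and 4 h. No comparison of Srebf1 with untreated cells was called, with 0.17 ± 0.095, adjusted p = 0.24 at 4 h and -0.19 ± 0.095, adjusted p = 0.12 at 2 days. Exons of Srebf1 and Scap overlap those of Rai1 and 5830462I19Rik on the other strand, and their counts are uncertain to that extent. The plot of the regulators shows Scap at higher means at each later time up to 1 day while Insig1 and Srebf2 peak at 4 h.

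**Figure D2:**
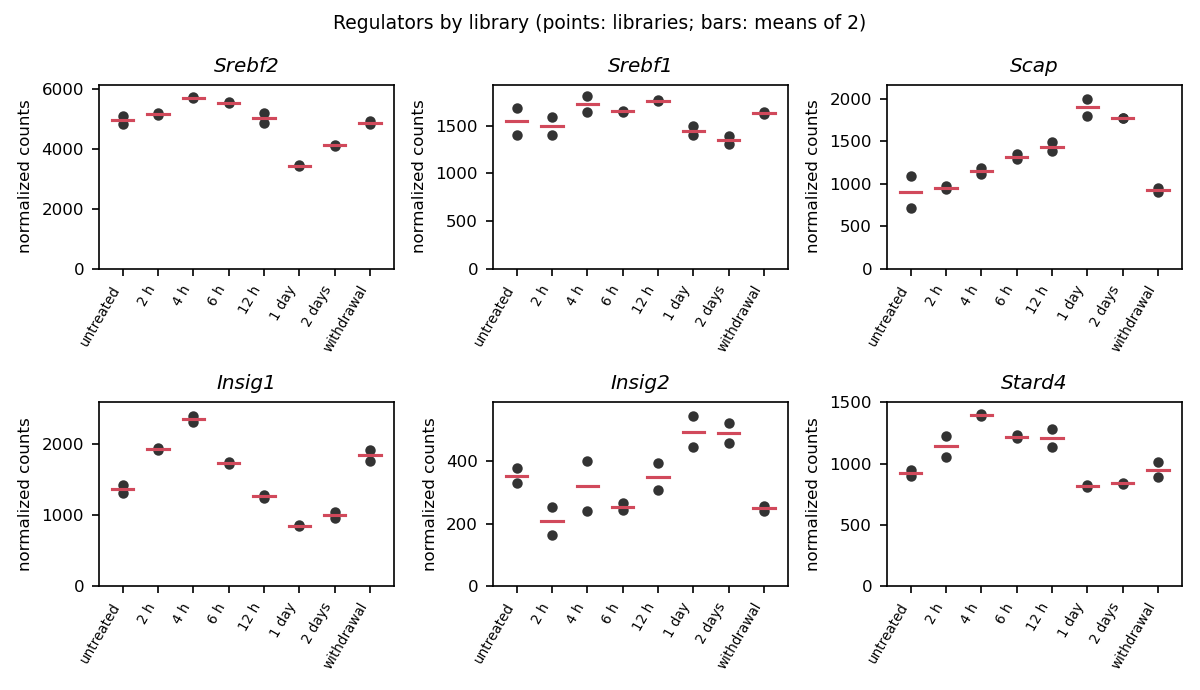
Normalized counts (vertical axis, from 0) of the 6 regulator and transport genes in each group (horizontal axis); points are libraries and bars the means of 2. Insig1 and Stard4 are highest at 4 h, and Scap is highest at 1 day, at 1998 and 1797, and its withdrawal libraries lie between the untreated ones.

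The promoters of 4 genes are shown because they differ in course: Hmgcs1 and Insig1 were higher at 4 h and lower at 2 days, Idi1 had the deepest fall, and Scap was higher at 2 days. Each window runs from 250 bases before the annotated start to 50 after it, from RefSeq on GRCm38.p6, written 5′ to 3′ on the gene's strand. Capitals mark the sterol regulatory element core TCACNCCAC and CCAAT boxes on either strand.
Hmgcs1 promoter, chr13:119690101-119690400, + strand: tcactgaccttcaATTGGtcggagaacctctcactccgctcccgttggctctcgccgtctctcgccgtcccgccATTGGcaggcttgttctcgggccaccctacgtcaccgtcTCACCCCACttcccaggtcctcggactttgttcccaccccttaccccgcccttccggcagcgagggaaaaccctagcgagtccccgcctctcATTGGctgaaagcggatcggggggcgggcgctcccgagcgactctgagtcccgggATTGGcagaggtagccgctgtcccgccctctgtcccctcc
Insig1 promoter, chr5:28071162-28071461, + strand: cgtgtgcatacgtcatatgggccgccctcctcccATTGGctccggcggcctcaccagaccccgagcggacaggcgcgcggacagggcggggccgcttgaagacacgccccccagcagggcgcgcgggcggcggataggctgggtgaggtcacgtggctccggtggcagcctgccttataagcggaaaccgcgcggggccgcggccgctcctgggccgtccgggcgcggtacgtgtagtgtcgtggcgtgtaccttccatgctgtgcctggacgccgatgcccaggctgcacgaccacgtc
Idi1 promoter, chr13:8885356-8885655, + strand: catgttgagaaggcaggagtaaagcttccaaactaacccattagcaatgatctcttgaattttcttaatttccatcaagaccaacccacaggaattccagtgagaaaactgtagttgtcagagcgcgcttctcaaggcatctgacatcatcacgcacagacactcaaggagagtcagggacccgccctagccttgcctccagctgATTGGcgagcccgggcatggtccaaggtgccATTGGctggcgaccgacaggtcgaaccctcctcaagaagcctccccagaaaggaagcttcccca
Scap promoter, chr9:110333038-110333337, + strand: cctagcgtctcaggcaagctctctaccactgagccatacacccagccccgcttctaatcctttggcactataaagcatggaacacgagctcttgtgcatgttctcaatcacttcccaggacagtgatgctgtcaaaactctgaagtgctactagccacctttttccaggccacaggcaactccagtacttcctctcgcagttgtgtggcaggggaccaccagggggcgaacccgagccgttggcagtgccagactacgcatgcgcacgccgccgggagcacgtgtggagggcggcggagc
Promoter windows were found for 26 of the 33 genes, in 34 windows. The core TCACNCCAC was present in 1 of the 26 genes, Hmgcs1, beginning at position -137 relative to the start, and in 1.24% of 32851 promoter windows of all genes. A CCAAT box was present in 22 of the 34 windows, against 37.4% of all windows. The GC box GGGCGG was present in 26 of the 34, against 35.7%, and the E-box CACGTG in 6 of the 34, against 7.15%. These are letter matches on both strands and not measured binding sites, and overlaps between motifs were not removed. The windows of all genes were not limited to expressed genes, and some members have several windows. The shares are therefore not matched and are a description only. For Scap the first of its windows is printed, and neither capitalised motif was found in it.

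In the mevalonate steps, 1 of 7 enzymes was higher than in untreated cells at 4 h, and 6 of 7 were lower at 2 days. Over all genes 8.86% were higher at 4 h and 23.8% lower at 2 days. Hmgcs1, the synthase that makes HMG-CoA, had 3411 and 3833 normalized counts without auxin, 4396 and 4485 by 2 h, 6149 and 5997 by 4 h, 4997 and 4836 by 6 h, and 3638 and 3508 by 12 h. Hmgcs1 then stood at 2185 and 2189 by 1 day, 2373 and 2403 by 2 days, and 3927 and 4192 once auxin was withdrawn. Its 4 h libraries were the highest of all 16, and those of 1 and 2 days the lowest. Hmgcs1, on chromosome 13 at 119690379 to 119708260 (GRCm38, GENCODE M21), was higher at 4 h (0.75 ± 0.067, adjusted p = 1.9e-05) and lower at 1 day (-0.73 ± 0.067, adjusted p = 3e-06) as well as at 2 days (-0.60 ± 0.067, adjusted p = 8.9e-06). Idi1, the isomerase of isopentenyl diphosphate, had 2734 and 3299.84 normalized counts without auxin, 2460.2 and 2679.78 by 2 h, 3168 and 3139.58 by 4 h, 2685 and 2593 by 6 h, and 1659 and 1739 by 12 h. Idi1 then stood at 1037 and 794 by 1 day, 699 and 666 by 2 days, and 2918 and 2808 once auxin was withdrawn. The 4 h libraries fell between the untreated ones, and the levels at 1 and 2 days were below every other library. Idi1 changed by -1.73 ± 0.11, adjusted p = 1.8e-07 at 1 day and -2.14 ± 0.11, adjusted p = 2e-08 at 2 days, a 4.40-fold lower level and the largest fall among the members. At 4 h it changed by 0.070 ± 0.11, adjusted p = 0.71, not called.

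Acat2, the cytosolic thiolase that condenses acetyl-CoA, had 2257 and 2127 normalized counts without auxin, 2100.05 and 2069 by 2 h, 2244 and 2296 by 4 h, 2259 and 2164 by 6 h, and 1729 and 1863 by 12 h. Acat2 then stood at 1311 and 1489.55 by 1 day, 1187 and 1139.83 by 2 days, and 2525 and 2613 once auxin was withdrawn. Up to 6 h its libraries stayed close to the untreated ones, and from 12 h to 2 days they were all below. Acat2 was lower at 1 day (-0.65 ± 0.076, adjusted p = 2.5e-05) as well as at 2 days (-0.91 ± 0.076, adjusted p = 7.4e-07). Fdps, farnesyl diphosphate synthase, had 1868 and 2071 normalized counts without auxin, 1639 and 1689.94 by 2 h, 2005 and 1950.49 by 4 h, 1864 and 1784 by 6 h, and 1444 and 1556 by 12 h. Fdps then stood at 954 and 1188 by 1 day, 1151 and 1181 by 2 days, and 2379.73 and 2238 once auxin was withdrawn. Only the libraries of withdrawal were above both untreated ones. Fdps was lower at 1 day (-0.89 ± 0.096, adjusted p = 1.3e-05) as well as at 2 days (-0.75 ± 0.096, adjusted p = 3e-05). Mvd, the decarboxylase of mevalonate diphosphate, had 762 and 724 normalized counts without auxin, 636 and 628 by 2 h, 821 and 825 by 4 h, 700.13 and 806 by 6 h, and 524 and 617 by 12 h. Mvd then stood at 437 and 561 by 1 day, 486 and 480.25 by 2 days, and 842 and 868 once auxin was withdrawn. The 1 day libraries differed from each other, yet both lay below the untreated ones, as did both 2 day libraries. Mvd was lower at 1 day (-0.58 ± 0.12, adjusted p = 0.0021) as well as at 2 days (-0.62 ± 0.12, adjusted p = 0.00093). Pmvk ranged over 391 to 686 and was lower at 2 days (-0.48 ± 0.15, adjusted p = 0.018), a call that was lost in 3 of 13 alternatives. Mvk ranged over 399.56 to 688 and was not called at 2 days (-0.12 ± 0.11, adjusted p = 0.42). Reads of Hmgcs1 and Idi1 could be shared with the antisense genes Gm48342 and Gm48574, and those of Fdps with Gm43738 on the same strand, since strand handling in counting is not given in the sources used here.

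In the squalene and ring steps, 4 of 11 enzymes were higher than in untreated cells at 4 h, 1 was lower, and 8 were lower at 2 days. The shares over all genes were 8.86% higher and 10.2% lower at 4 h, and 23.8% lower at 2 days. Msmo1, the oxidase that starts removal of sterol methyl groups, had 1262 and 1329.59 normalized counts without auxin, 1683 and 1626 by 2 h, 1986 and 1958 by 4 h, 1484 and 1412 by 6 h, and 1039.96 and 1003 by 12 h. Msmo1 then stood at 591 and 735 by 1 day, 700.06 and 689 by 2 days, and 1295 and 1425 once auxin was withdrawn. The libraries of 2 h, 4 h and 6 h were above the untreated ones, and those of 12 h to 2 days below them. Msmo1 was higher at 4 h (0.61 ± 0.096, adjusted p = 0.001) and lower at 1 day (-0.97 ± 0.096, adjusted p = 5.4e-06) as well as at 2 days (-0.90 ± 0.096, adjusted p = 6.2e-06). Cyp51, the demethylase of lanosterol, had 1288 and 1269 normalized counts without auxin, 1540.16 and 1514 by 2 h, 1883 and 1862 by 4 h, 1345 and 1257 by 6 h, and 1040.23 and 1097 by 12 h. Cyp51 then stood at 844 and 764 by 1 day, 796 and 799.92 by 2 days, and 1437 and 1442 once auxin was withdrawn. The order of groups was the same as for Msmo1 at 4 h, untreated and 2 days, with no overlap. Cyp51 was higher at 4 h (0.55 ± 0.075, adjusted p = 0.00035) and lower at 1 day (-0.67 ± 0.075, adjusted p = 1.6e-05) as well as at 2 days (-0.68 ± 0.075, adjusted p = 8e-06). Lss, the cyclase that makes lanosterol, had 1569 and 1183 normalized counts without auxin, 1459 and 1543 by 2 h, 1746 and 1837 by 4 h, 1874 and 1752 by 6 h, and 1228 and 1304 by 12 h. Lss then stood at 904 and 688 by 1 day, 772 and 757 by 2 days, and 1424 and 1268 once auxin was withdrawn. Both 4 h libraries exceeded the untreated ones, which differed widely from each other. At 4 h the change of Lss was 0.39 ± 0.13, adjusted p = 0.056, not called, and it was lower at 1 day (-0.79 ± 0.13, adjusted p = 0.00055) as well as at 2 days (-0.83 ± 0.13, adjusted p = 0.00022).

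Sqle, squalene epoxidase, a rate-controlling step after HMG-CoA reductase, had 3495 and 3334 normalized counts without auxin, 3501 and 3461 by 2 h, 3579 and 3442 by 4 h, 2678 and 2660.31 by 6 h, and 2543 and 2388 by 12 h. Sqle then stood at 2233 and 2110.28 by 1 day, 2661 and 2561 by 2 days, and 3455 and 3736 once auxin was withdrawn. Its libraries at 2 h and 4 h overlapped with the untreated ones, and at 6 h they were already below. Sqle was lower at 1 day (-0.65 ± 0.066, adjusted p = 7.3e-06) as well as at 2 days (-0.39 ± 0.066, adjusted p = 0.00036). Dhcr7, a reductase of the last steps to cholesterol, had 888 and 984 normalized counts without auxin, 702 and 734 by 2 h, 912 and 899 by 4 h, 834 and 1066 by 6 h, and 816 and 784 by 12 h. Dhcr7 then stood at 393 and 399.75 by 1 day, 422 and 637 by 2 days, and 688 and 944 once auxin was withdrawn. The 2 day libraries differed from each other but both lay below every untreated one. Dhcr7 was lower at 1 day (-1.24 ± 0.18, adjusted p = 0.00014) as well as at 2 days (-0.85 ± 0.18, adjusted p = 0.0016). Of the other 6, Fdft1, squalene synthase, ranged over 740.5 to 1469 and was higher at 4 h (0.48 ± 0.11, adjusted p = 0.0076). Hsd17b7, a ketoreductase of sterols, ranged over 286 to 579 and was higher at 4 h (0.64 ± 0.13, adjusted p = 0.0059). Both calls were lost without replicate 1 of the 4 h group. Ebp, a sterol isomerase, ranged over 520.48 to 979 and went the other way at 4 h (-0.70 ± 0.13, adjusted p = 0.0033), staying lower at 2 days (-0.59 ± 0.13, adjusted p = 0.0027). Nsdhl (379.68 to 719.96) and Tm7sf2 (104 to 251) changed at 2 days by -0.48 ± 0.14, adjusted p = 0.015 and -0.46 ± 0.17, adjusted p = 0.047, and the calls were lost in 4 and 8 of 13 alternatives. Sc5d (334 to 533) was called at neither 4 h (0.29 ± 0.10, adjusted p = 0.064) nor 2 days (-0.11 ± 0.10, adjusted p = 0.42). Exons of Fdft1, Lss, Cyp51 and Tm7sf2 overlap those of Ctsb, 4930483K19Rik, Akap9 and Vps51, and their counts are uncertain to that extent.

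In the fatty acid arm, none of 9 enzymes was called higher than in untreated cells at 4 h by limma (1, Fasn, at an unadjusted p below 0.05), 1 was lower, and 6 were lower at 2 days. The shares over all genes were 8.86% higher and 10.2% lower at 4 h, and 23.8% lower at 2 days. Acaca, acetyl-CoA carboxylase, which makes malonyl-CoA, had 1467 and 2164 normalized counts without auxin, 1512 and 1969 by 2 h, 2340.34 and 1790.11 by 4 h, 1969.52 and 2106 by 6 h, and 1142 and 1395 by 12 h. Acaca then stood at 829.5 and 561 by 1 day, 618 and 782 by 2 days, and 2206 and 2311 once auxin was withdrawn. The libraries of 2 h, 4 h and 6 h overlapped with the untreated ones, whose replicates were far apart, and those of 12 h to 2 days were all below. Acaca was lower at 1 day (-1.38 ± 0.21, adjusted p = 0.00025) as well as at 2 days (-1.36 ± 0.21, adjusted p = 0.00019), and at 4 h it changed by 0.20 ± 0.21, adjusted p = 0.56, not called. Fasn, fatty acid synthase, had 15080.11 and 12537 normalized counts without auxin, 15797 and 15343 by 2 h, 17338 and 16485 by 4 h, 15807 and 16282 by 6 h, and 12212 and 12768 by 12 h. Fasn then stood at 7749 and 9783 by 1 day, 8151 and 8952 by 2 days, and 15221 and 13907 once auxin was withdrawn. The 4 h libraries were above both untreated ones and the libraries of 1 and 2 days below them. Fasn changed by 0.30 ± 0.10, adjusted p = 0.061 at 4 h, not called, and was lower at 1 day (-0.66 ± 0.10, adjusted p = 0.00029) as well as at 2 days (-0.69 ± 0.10, adjusted p = 0.00013). Scd2, a stearoyl-CoA desaturase, which makes monounsaturated fatty acids, had 10585 and 15396 normalized counts without auxin, 8936 and 9167 by 2 h, 12073 and 11725 by 4 h, 9500.11 and 9349.84 by 6 h, and 10929 and 11085 by 12 h. Scd2 then stood at 5227 and 6119 by 1 day, 5754 and 5971 by 2 days, and 14752 and 15571 once auxin was withdrawn. Untreated replicates were far apart, and still every library of 1 and 2 days was below both. Scd2 was lower at 1 day (-1.17 ± 0.12, adjusted p = 1.1e-05) as well as at 2 days (-1.12 ± 0.12, adjusted p = 8.7e-06).

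Scd1, another stearoyl-CoA desaturase, had 2310.45 and 2781 normalized counts without auxin, 1865 and 1863 by 2 h, 2259 and 2198 by 4 h, 1973 and 1983 by 6 h, and 2049.5 and 1884 by 12 h. Scd1 then stood at 1254 and 1437 by 1 day, 1596 and 1603 by 2 days, and 4124 and 4257 once auxin was withdrawn. All auxin libraries from 2 h on were below both untreated ones, and both withdrawal libraries were above every other. Scd1 was lower at 2 h (-0.44 ± 0.090, adjusted p = 0.006), 1 day (-0.92 ± 0.090, adjusted p = 5.3e-06) as well as at 2 days (-0.66 ± 0.090, adjusted p = 5e-05). Fads2, a desaturase of polyunsaturated fatty acids, had 603 and 746 normalized counts without auxin, 644 and 623 by 2 h, 755 and 743 by 4 h, 778 and 793 by 6 h, and 679.82 and 726 by 12 h. Fads2 then stood at 438 and 357 by 1 day, 423 and 399 by 2 days, and 964 and 1021 once auxin was withdrawn. The untreated libraries overlapped with those of 2 h, 4 h and 12 h, and the lowest values were at 1 and 2 days and the highest after withdrawal. Fads2 was lower at 1 day (-0.76 ± 0.12, adjusted p = 0.00023) as well as at 2 days (-0.70 ± 0.12, adjusted p = 0.00028). Fads1 (1201 to 1730.37) was lower at 4 h (-0.31 ± 0.074, adjusted p = 0.012) as well as at 2 days (-0.32 ± 0.074, adjusted p = 0.0034). Acly, the citrate lyase that supplies acetyl-CoA, ranged over 9493 to 13159.85 and was not called at 4 h or 2 days, nor were Elovl6 (3647 to 5232) and Acss2 (292 to 465). Their changes at 2 days were -0.030 ± 0.066, -0.17 ± 0.092 and -0.12 ± 0.14. Exons of Acss2 and Elovl6 overlap those of other annotated genes, and their counts are uncertain to that extent.

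Of the arms only the sterol arm had members called higher at 4 h, and most members of both were lower at 2 days. At 4 h, 5 of the 18 sterol arm members were higher and 1 lower than in untreated cells, against 0 of 9 higher and 1 lower in the fatty acid arm. Over all genes 8.86% were higher and 10.2% lower, and 0 of 9 higher is near the 8.86%. The median log2 change at 4 h was 0.141 in the sterol arm, 0.288 in the regulators and -0.102 in the fatty acid arm. At 2 days, 14 of 18 sterol arm members and 6 of 9 fatty acid members were lower, with medians of -0.595 and -0.664. At 1 day the counts were 13 and 6, with medians of -0.65 and -0.659. Over all genes 23.8% were lower at 2 days and 17.7% at 1 day. The difference between the arms was not tested. The libraries of 2 h to 12 h fitted alone gave 9 of 18 and 3 of 9 higher at 4 h than at 2 h. Over all genes 4.81% were higher in that fit. The 3 fatty acid members, Acly, Scd1 and Scd2, had been called lower at 2 h than in untreated cells. The untreated replicates decided the sign of the fatty acid median at 4 h, which was -0.318 without replicate 1 and 0.031 without replicate 2, while the sterol median was between 0.132 and 0.229 with any 1 library of these groups left out. Taking each member's mean in untreated cells and at the 6 auxin times, 17 of 33 were highest at 4 h, and 12 of these were in the sterol arm, 3 were regulators and 2, Acaca and Fasn, were in the fatty acid arm. Of the 9 fatty acid members, 6 were highest in untreated cells. The shares of all genes highest at 4 h or in untreated cells were not computed, so these counts are a description only. The plot of the course shows the sterol ring and regulator lines above 0 at 4 h and the fatty acid line below it.

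**Figure D3:**
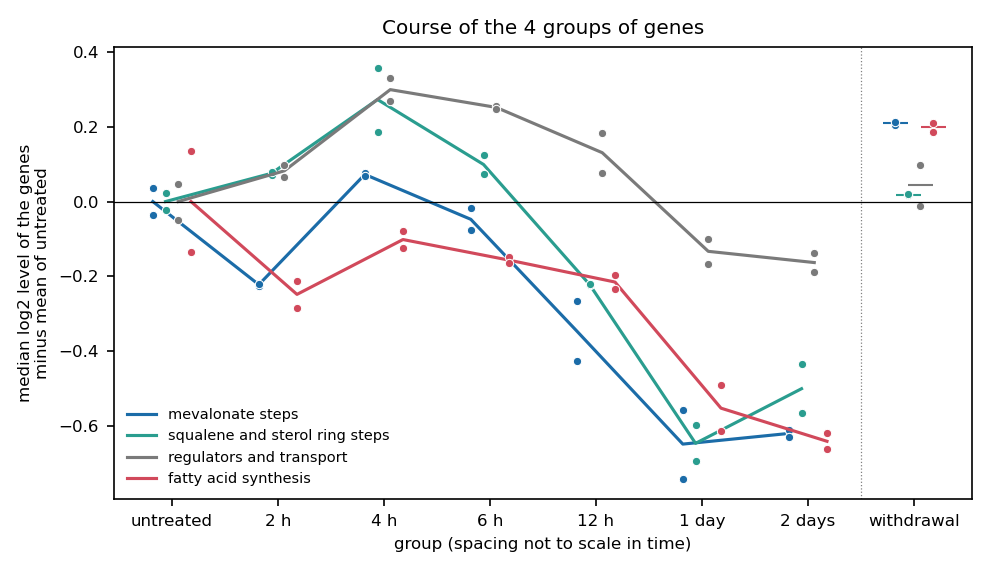
Median over the genes of each of the 4 groups of log2(value + 1) minus the mean of untreated cells (vertical axis) against group (horizontal axis, spacing not to scale); points are libraries, lines join means of 2 from untreated to 2 days, and dashes mark withdrawal. At 4 h both ring libraries (0.358 and 0.187) are above 0; at 2 days the mevalonate libraries are at -0.611 and -0.628.

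Comparisons inside 2 h to 12 h take no mean from the untreated libraries, though the fit over all 16 libraries pools their spread with that of the others. At 4 h against 2 h, Hmgcs1 alone was called higher (0.45 ± 0.067, adjusted p = 0.0022) and none lower (0 at an unadjusted p below 0.05 by limma), against 1.77% and 0.681% of all genes. With the 8 libraries of 2 h to 12 h fitted alone, 14 members were higher at 4 h than at 2 h and none lower, against 4.81% and 3.64% of all genes; this fit was added after the data were seen. The 14 were 9 of the sterol arm, 2 regulators (Scap and Insig1) and 3 of the fatty acid arm (Acly, Scd1 and Scd2). In that fit Hmgcs1 changed by 0.45 ± 0.044, adjusted p = 0.0002, and Scd2 by 0.39 ± 0.036, adjusted p = 0.00016. In the fit over all 16 libraries, Acly, Scd1 and Scd2 were lower at 2 h than in untreated cells. Their 4 h means were still below the untreated means. Hmgcs1, Cyp51, Msmo1 and Insig1, also among the 14, were higher at 2 h. The median log2 change at 2 h against untreated cells was -0.107 in the sterol arm and -0.248 in the fatty acid arm. A return from the 2 h level and a rise above untreated cells were not separated. In 26 of the 33 members both 4 h libraries were above both 2 h ones. The share of all genes with this order was not computed, so this count cannot be judged against it. The median log2 change at 4 h against 2 h was 0.271 in the sterol arm, 0.184 in the fatty acid arm and -0.01 over all genes.

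Lower levels were already measured at 12 h. At 12 h against 4 h, 15 of the 33 were lower and none higher by limma (1, Scap, at an unadjusted p below 0.05), against 10% and 6.84% of all genes. Of the 15, 11 were in the sterol arm, Srebf2 and Insig1 were regulators, and Acaca and Fasn were in the fatty acid arm. The call of Srebf2 was lost in 6 of 14 alternatives, among them leaving out any 1 of the 4 libraries compared. Msmo1 changed by -0.95 ± 0.096, adjusted p = 5.7e-05, Insig1 by -0.90 ± 0.075, adjusted p = 1.1e-05, Idi1 by -0.89 ± 0.11, adjusted p = 0.00025, Cyp51 by -0.81 ± 0.075, adjusted p = 2.5e-05 and Hmgcs1 by -0.77 ± 0.067, adjusted p = 1.5e-05. The count was 6 to 8 with replicate 1 or replicate 2 of 4 h, or replicate 1 of 12 h, left out in turn. At 6 h against 2 h, Mvk was higher and Sqle lower, against 4.45% and 3.35% of all genes, and at 12 h against 2 h 2 were higher and 7 lower, against 10.9% and 13.7%. With the 8 libraries alone, 19 members were lower and 1, Scap, was higher at 12 h than at 4 h, against 17.4% and 12.5% of all genes.

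After withdrawal, 25 of the 33 were higher than at 2 days of auxin and 2, Scap and Insig2, were lower, against 22.2% and 19.1% of all genes. All 22 members that were lower at 2 days were among the 25, though these comparisons share the 2 day libraries. The share of all genes lower at 2 days that were higher after withdrawal was not computed, so this overlap is a description only. The sterol arm had 15 of 18 higher, with a median log2 change of 0.775, and the fatty acid arm 7 of 9, with 0.768. Idi1 changed by 2.07 ± 0.11, adjusted p = 3e-08, Acaca by 1.70 ± 0.21, adjusted p = 3.2e-05, Scd1 by 1.39 ± 0.090, adjusted p = 1.1e-07 and Scap by -0.94 ± 0.14, adjusted p = 0.00013. The calls of Mvk, Pmvk, Ebp, Dhcr7, Srebf1 and Acly were each lost with at least 1 library of these groups left out. Set against untreated cells, 3 members were higher after withdrawal and none lower (0 at an unadjusted p below 0.05 by limma), where 1.72% and 1.07% of all genes were. These were Scd1 (0.72 ± 0.090, adjusted p = 0.0015), Fads2 (0.56 ± 0.12, adjusted p = 0.022) and Insig1 (0.43 ± 0.075, adjusted p = 0.0082), and each call was lost with these groups fitted alone. Without replicate 1 of withdrawal the calls of Insig1 and Fads2 were lost, at adjusted p = 0.11 each, and that of Fads2 also without replicate 2 of withdrawal (adjusted p = 0.15) or replicate 1 of the untreated group (adjusted p = 0.059). The plot of changes sets the rise at 4 h, the fall and the return side by side for each gene.

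**Figure D4:**
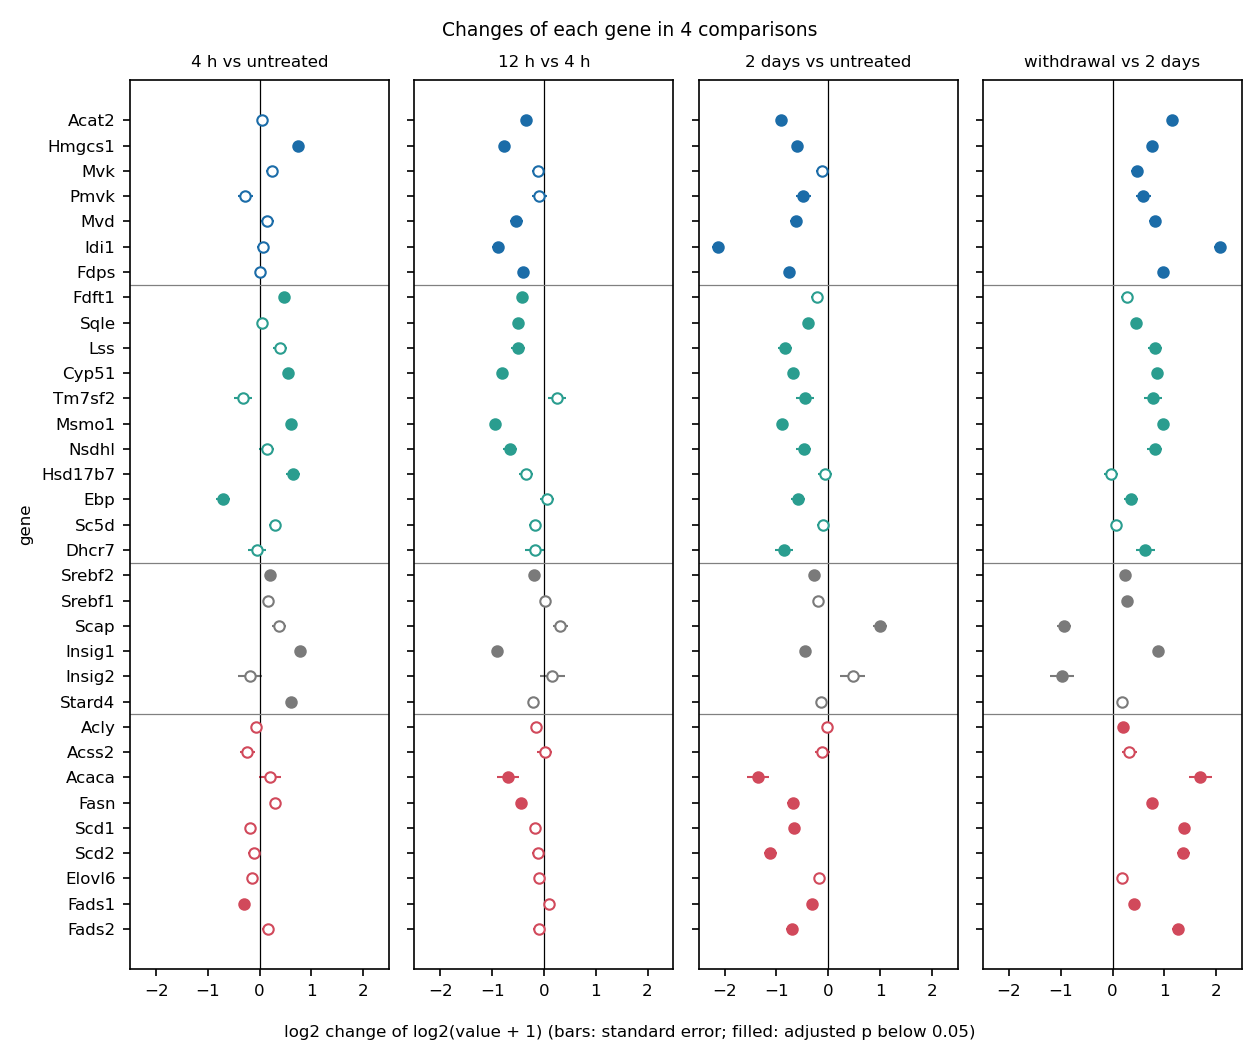
Log2 change of each gene (horizontal axis, points, with standard error bars; filled where the adjusted p is below 0.05) in 4 comparisons, with genes down the page in the order of the groups. At 2 days Idi1 is farthest left, at -2.14, and it is farthest right after withdrawal, at 2.07.

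Per kilobase of exon, the fatty acid genes Scd2, Acly and Fasn had the highest mean levels of the set in untreated cells, at 2377, 2194 and 1261 normalized counts per kilobase. The highest sterol genes were Acat2 at 861.5, Idi1 at 860.8 and Hmgcs1 at 788 per kilobase. At 2 days Idi1 was at 195 per kilobase and Hmgcs1 at 519.9, while Acly stayed at 2146. The lowest member was Acss2, at 38.9 per kilobase in untreated cells. Exon length here joins the exons of all annotated transcripts of a gene, 10163 bases over 10 transcripts for Acss2. The order of genes therefore depends in part on the annotation. Across the 8 group means, the members whose log2 level followed Srebf2 most closely were Hmgcs1 (Pearson r 0.947), Dhcr7 (0.944), Lss (0.941) and Fasn (0.927). By Spearman's rho the order differed, with Sc5d, Fdft1 and Hsd17b7 first (0.976 each) and Dhcr7 at 0.667. The lowest Pearson values were those of Scap (-0.67) and Insig2 (-0.747). This is a description over 8 means of the same libraries.

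Genes linked to the pathway outside the 33 were counted from lists chosen with earlier results known. Of 23 related sterol genes tested, 7 were higher and 5 lower than in untreated cells at 2 days, against 21% and 23.8% of all genes, with a median log2 change of -0.011. Abcg1, a sterol efflux transporter, had 86.8 and 79.1 normalized counts without auxin, 39.8 and 53.4 by 2 h, 67.4 and 58.5 by 4 h, 81.9 and 78.3 by 6 h, and 152 and 188 by 12 h. Abcg1 then stood at 185 and 158 by 1 day, 289 and 316 by 2 days, and 122 and 124 once auxin was withdrawn. It was above every untreated library from 12 h on, and higher at 2 days (1.86 ± 0.19, adjusted p = 4.5e-06). Abca1, the transporter that loads cholesterol onto lipoproteins, had 289 and 198 normalized counts without auxin, 404 and 316 by 2 h, 348 and 293 by 4 h, 236 and 259 by 6 h, and 429 and 389 by 12 h. Abca1 then stood at 501 and 432 by 1 day, 617 and 626 by 2 days, and 290.28 and 272 once auxin was withdrawn. Both 2 day libraries were the highest, and Abca1 was higher at 2 days (1.37 ± 0.17, adjusted p = 2.8e-05). Npc1, which exports cholesterol from lysosomes, had 1255 and 1338 by 2 days, against 749 and 804 without auxin (0.74 ± 0.088, adjusted p = 1.6e-05). After withdrawal, 5 of the 23 were higher than at 2 days and 9 lower, against 22.2% and 19.1% of all genes; Abca1, Abcg1 and Npc1 were lower (-1.14 ± 0.17, adjusted p = 0.00015, -1.29 ± 0.19, adjusted p = 0.00013 and -0.84 ± 0.088, adjusted p = 6.5e-06). Nus1, a subunit of the enzyme that makes dolichol precursors, changed at 2 days by -0.37 ± 0.072, adjusted p = 0.00093, and Cyb5r3, a cytochrome b5 reductase, changed after withdrawal by 0.51 ± 0.088, adjusted p = 0.00043 against 2 days.

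Of 23 related fatty acid genes tested, 5 were higher and 9 lower at 2 days, against 21% and 23.8% of all genes, with a median of -0.029. Lpin1, a phosphatidate phosphatase that makes diacylglycerol, had 453 and 465 normalized counts without auxin, 560.29 and 617 by 2 h, 1595 and 1498 by 4 h, 1498 and 1554 by 6 h, and 1539 and 1527 by 12 h. Lpin1 then stood at 1561 and 1390.01 by 1 day, 1378 and 1419 by 2 days, and 339 and 413 once auxin was withdrawn. Its level was high at every time from 4 h to 2 days, with no overlap with the untreated libraries. Lpin1 was higher at 4 h than at 2 h (1.39 ± 0.100, adjusted p = 1.4e-05), higher at 2 days than in untreated cells (1.61 ± 0.100, adjusted p = 6.6e-08) and lower after withdrawal than at 2 days (-1.90 ± 0.100, adjusted p = 2.2e-08). Mid1ip1, an activator of acetyl-CoA carboxylase, had 397 and 515 normalized counts without auxin, 214 and 238 by 2 h, 262 and 218 by 4 h, 298 and 202 by 6 h, and 246 and 317 by 12 h. Mid1ip1 then stood at 70.9 and 68.1 by 1 day, 93.7 and 80.8 by 2 days, and 247 and 369.6 once auxin was withdrawn. All auxin libraries were below the untreated ones, the 1 and 2 day ones most, and Mid1ip1 was lower at 2 days (-2.36 ± 0.23, adjusted p = 2.7e-06). Cpt1a, the entry step of fatty acid oxidation, was higher at 2 days (0.91 ± 0.12, adjusted p = 4.9e-05), at 2704 and 2834 by 2 days against 1695 and 1287 without auxin. Acsl4, an acyl-CoA synthetase, was lower at 2 days (-1.03 ± 0.13, adjusted p = 3.1e-05), and Hadhb, of mitochondrial fatty acid oxidation, was higher after withdrawal than at 2 days (0.50 ± 0.10, adjusted p = 0.0015).

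**Figure D5:**
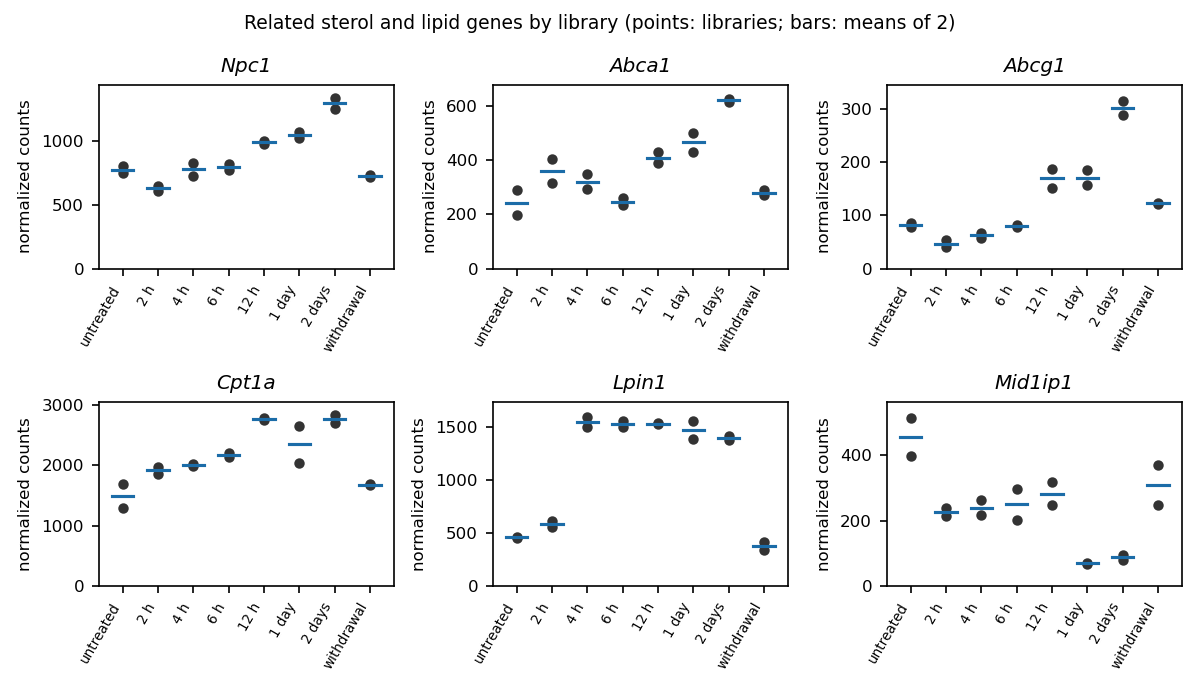
Normalized counts (vertical axis, from 0) of 6 related genes in each group (horizontal axis); points are libraries and bars the means of 2. Abca1, Abcg1 and Npc1 are highest at 2 days, when Mid1ip1 is low; Lpin1 is high from 4 h to 2 days.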

How the data were processed

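RNA sequencing libraries were made from purified mRNA, per the labels' protocols, for 16 samples in 8 groups of 2. The deposited table holds a signal per gene that the authors name normalized counts; the values are not whole numbers, and how they were normalized is not given in the sources used here. Trim Galore, STAR, RSEM, DESeq2 and mm10 are named in the submitters' processing notes; versions, the role of each tool, the annotation and strand handling stay unstated: not given in the sources used here. Whole reads could not be recovered: within 0.1 of a whole step, 72.3% to 99.0% of low values were whole in 1884 genes with a single transcript, and 36.1% to 45.2% in others. Roughly 13.6 M to 17.5 M reads per library were estimated from the steps.

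From the deposited table, log2(value + 1) of the 13355 genes with a mean of at least 10 was fitted over all 16 libraries with limma 3.58.1 in R 4.3.3, with 1 mean per group, 8 residual degrees of freedom, a mean-dependent variance prior and Benjamini-Hochberg adjustment over all genes in each of 13 comparisons. All 33 members passed the filter. Fold changes are on the log2(value + 1) scale and understate changes of low genes. The members and gene lists were chosen with earlier results of these data known. Values per library are printed for all 6 regulators and for the 5 members of each other group with the smallest p at 4 h, 1 day or 2 days against untreated cells or at 4 h against 2 h; of the related lists, at most 4 called genes per comparison are named. The related lists held 25 sterol genes, of which 23 were tested. Ch25h was absent from the table, and why another of them was not tested is not given here. The fatty acid list held 27 genes (Hacd2, Hacd3 and Pparg absent, Thrsp below the filter). Mesoderm, neural and trophoblast markers summed to 186 to 529, 1730 to 2732 and 1546 to 2369 over 5 genes each. Exon lengths, over the joined exons of all transcripts of a gene, and positions came from GENCODE M21. The fit was tested on simulated data with the same spread in all groups and no set of libraries standing apart. The real groups differ in spread, so this does not test the calls against untreated cells. Alternatives were a pseudocount of 0.5 or of 5, leaving out the filter, raising it to a mean of 50, trimmed mean and upper quartile scaling, a replicate block, library weights, the 2 groups compared alone, each library left out, and, added after the data were seen, the libraries of 2 h to 12 h alone.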

Additional observations from a re-analysis of the deposited data

Results flagged for a closer look

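In 11 of the 33 genes both 4 h libraries were above both untreated ones and both 2 day libraries below them, and 5 of these, Hmgcs1, Cyp51, Msmo1, Srebf2 and Insig1, were called in both directions. The share of all genes with this order was not computed, so whether 11 of 33 is unusual is not known. The log2 difference at 2 days against 4 h was -1.35 for Hmgcs1, -1.23 for Cyp51, -1.50 for Msmo1, -0.47 for Srebf2 and -1.23 for Insig1. It was -0.77 for Mvd, -0.70 for Fdft1, -1.23 for Lss, -0.40 for Sc5d, -0.74 for Stard4 and -0.98 for Fasn. Choosing these genes by their libraries fixes the direction, so the values are a description and the difference was not tested. The 4 h libraries belong to the 8 that stood apart from the rest, so this difference and any batch cannot be told apart.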

How the results depend on the processing

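No called member changed direction under any alternative. The counts of members lower at 1 day (21) and at 2 days (22), and of those higher after withdrawal than at 2 days (25), stayed within 1.5 times under every alternative run. With each of the 2 groups fitted alone, the members called were 1 at 2 h, 3 at 6 h, 7 at 12 h and 0 after withdrawal against untreated cells, 1 lower at 4 h, 10 higher at 4 h against 2 h, 7 at 6 h and 16 at 12 h against 2 h, and 0 at 2 days against 1 day. Of all 13355 genes, these fits called 408, 1411, 2901 and 1 at those times against untreated cells, and 394 lower at 4 h. Against 2 h they called 393 genes higher at 4 h, 2274 at 6 h and 4718 at 12 h. At 2 days against 1 day they called 0. The fit over all 16 libraries called 236 genes higher at 4 h, 1042 at 6 h and 3280 at 12 h against 2 h. Library weights gave 4 at 2 h, 13 higher at 4 h against 2 h, 8 and 17 at 6 h and 12 h against 2 h, and 0 at 2 days against 1 day. The libraries of 2 h to 12 h alone gave 14, 10 and 17 at 4 h, 6 h and 12 h against 2 h. Of all genes, 1128, 2500 and 4987 were called in that fit. A mean of at least 50, trimmed mean scaling and upper quartile scaling each gave 2 members higher at 4 h against 2 h. Of all genes tested they gave 247, 255 and 258 higher. Upper quartile scaling gave a sterol arm median of -0.537 at 2 days, and 0.736 and 0.729 in the sterol and fatty acid arms after withdrawal against 2 days. The cause of these differences was not tested.

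With 1 library left out, the members called against untreated cells numbered 2 to 7 at 2 h, 5 to 15 at 6 h, 5 to 14 at 12 h and 1 to 5 after withdrawal; at 4 h, 5 to 11 were higher and 1 to 5 lower. They numbered 1 to 2 at 6 h against 2 h, 6 to 10 at 12 h against 4 h and 0 to 3 at 2 days against 1 day. The lone library of such a group was assumed to vary like the others. Sterol arm medians ran from 0.132 to 0.229 at 4 h, -0.689 to -0.594 at 1 day, -0.685 to -0.527 at 2 days, 0.26 to 0.288 at 4 h against 2 h and 0.712 to 0.807 after withdrawal against 2 days. Fatty acid medians ran from -0.318 to 0.031 at 4 h, 0.126 to 0.253 at 4 h against 2 h and 0.701 to 0.836 after withdrawal against 2 days.

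Replicate numbers did not pair the samples: over 28 pairs of groups the correlation of deviations ran from -0.061 to 0.066. With a replicate block, 9 members were higher at 4 h and 2 lower, 21 were lower at 1 day, 22 at 2 days, and 25 were higher after withdrawal than at 2 days. Over all genes, 2 groups fitted alone gave 731 calls at 4 h against 2548, 1219 at 1 day against 4484 and 1 after withdrawal against 373 for untreated cells as the comparison, and library weights gave 1504, 1874 and 130. Upper quartile scaling made 55.5% of the calls at 6 h higher, where 44.9% were, and 39.6% at 2 days against 1 day, where 27.9% were. What depth limits was not tested; the call of Tm7sf2 at 2 days, a gene at 104 to 251 normalized counts, was lost in 8 of 13 alternatives.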
